A study of Procambarus virginalis with 6 samples.

Results

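HDNP-like hemocytes were studied across 6 single-cell RNA libraries of marbled crayfish (*Procambarus virginalis*) hemolymph. A cell was kept with 100 to 2000 detected features, and HDNP-like cells were selected on the measured level of 5 features: a kept cell was called HDNP-like when the 5 made up at least 1% of its UMIs (unique molecular identifiers, the counted RNA molecules) and at least 2 of the 5 were detected. By this definition 680 of 11521 kept cells were HDNP-like (5.90%), and the remaining 10841 cells are called other cells. The 3 KD animals had been injected on consecutive days with double-stranded RNA against *Dnmt1*, the maintenance DNA methyltransferase, and the 3 Ctrl animals with double-stranded GFP RNA, which matches no crayfish gene. Hemolymph was drawn 28 days post injection, and 1 library per animal was made with 10x Genomics v3.1 chemistry. Marbled crayfish are a clonal, all-female species, so the animals share 1 genotype, and RNA injected into the hemolymph is not restricted to hemocytes. The libraries held 259605 to 2487952 UMIs in KD animals and 615038 to 2472319 in Ctrl animals, with 635 to 2869 kept cells in KD and 622 to 5318 in Ctrl libraries.

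Hemocytes are the circulating cells of crustaceans and carry out clotting, encapsulation and the release of antimicrobial proteins. In crayfish, some hemocytes serve as precursors of neurons: these hemocyte-derived neuronal precursors (HDNPs) leave the circulation, enter a neurogenic niche on the brain surface and give rise to new neurons in the adult. The other populations in hemolymph include semigranular cells (SGCs) and granular cells (GCs), which store and release immune effectors, and circulating prohemocytes (CPHs), which are less differentiated.

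The 5 defining features were WNGS01166011.2446490, WNGS01167840.2551381, WNGS01109635.1378097, WNGS01167840.2551076_0_covsplit and WNGS01052365.949848_3_covsplit. They led a cluster of Ctrl1 cells that was the counterpart, by size rank, of the HDNPs described in the study. The files pair none of these identifiers with a gene name, so the cell type could not be checked against named neuronal or hemocyte genes, and the name HDNP-like rests on that rank alone. For the same reason the level of *Dnmt1* itself is not reported here.

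The libraries differed in ways that touch the results below. KD3 held only 2 HDNP-like cells, so any value of HDNP-like cells in KD3 rests on these 2. KD2 and Ctrl1 were shallow, with medians of 223 and 281 UMIs per kept cell, against 596 to 1258 in the other 4 libraries. Cell barcodes were shared between KD1, KD2, Ctrl2 and Ctrl3 more than between other libraries: KD1 and KD2 had 227 barcodes in common, and KD2 and Ctrl3 had 238. No barcode of Ctrl1 was found elsewhere, and 1 of KD3 was also in KD2. Of 110 barcodes kept in both KD1 and KD2, 15 were HDNP-like in KD1 and 8 in KD2, and all 8 of those in KD2 were HDNP-like in KD1 too. The part of this sharing in the results was not tested, and values without it are given where it changes one. No doublet caller was run. The HDNP-like cell with the most UMIs had 3067 UMIs, against 9395 in other cells.

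The share of HDNP-like cells varied more between animals of a group than between the groups. HDNP-like cells made up 8.06% of kept cells in KD1 (71 of 881, exact Clopper-Pearson 95% interval 6.35% to 10.1%), 6.30% in KD2 (40 of 635, 4.54% to 8.48%) and 0.0697% in KD3 (2 of 2869, 0.00844% to 0.252%). In Ctrl animals the share was 9.82% in Ctrl1 (522 of 5318, 9.03% to 10.6%), 2.26% in Ctrl2 (27 of 1196, 1.49% to 3.27%) and 2.89% in Ctrl3 (18 of 622, 1.72% to 4.54%). KD3 was the lowest and Ctrl1 the highest of the 6, and the groups overlapped: KD1 and KD2 lay between Ctrl3 and Ctrl1. The 5 features were found by clustering cells of Ctrl1, and the part of that choice in its high share was not tested. The intervals cover counting error only. The mean was 4.81 ± 4.20% in KD and 4.99 ± 4.19% in Ctrl (SD, n = 3 each), a difference of −0.180 points (p = 1 in an exact permutation test, two-sided, where 3 against 3 animals cannot go below 0.1). The sign of this difference rests on single libraries: it was 2.19 points without KD3 and 2.23 points without Ctrl1. It also turned to 0.23 points when a barcode found in several libraries was kept only where it had most UMIs, which removed 8 HDNP-like cells, all of KD2. Among the 4 libraries that share barcodes, KD1 and KD2 were both above Ctrl2 and Ctrl3, with a difference of 4.60 points (exact permutation p = 0.333, the smallest that 2 against 2 allows).

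**Figure D1:**
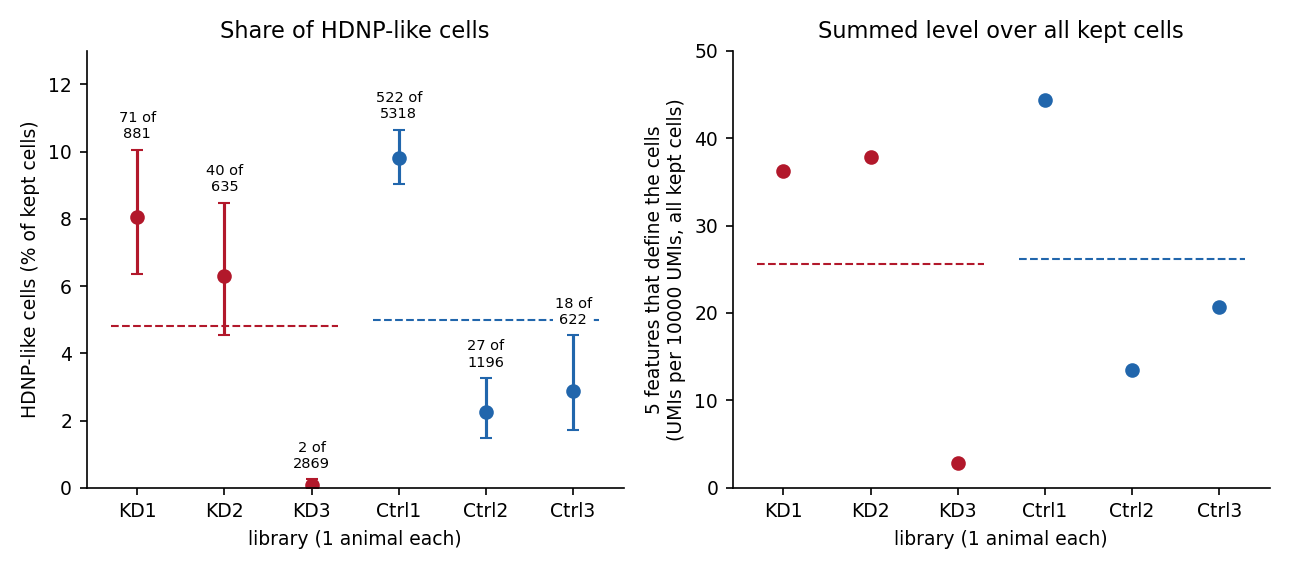
Left, percent of kept cells that are HDNP-like in each library, with exact 95% binomial intervals (bars) and the cell counts above. Right, summed level of the 5 defining features over all kept cells, in UMIs per 10000 UMIs. Dashed lines are group means (red KD, blue Ctrl, n = 3 each). KD3 is lowest in both panels, and Ctrl1, in which the 5 features were found, is highest. The group means lie close together at 4.81% against 4.99% and at 25.6 against 26.2 UMIs per 10000.

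KD3 and Ctrl1 remained the extremes at equal depth. After each cell was thinned to 150 UMIs, the share was 8.29%, 5.09% and 0.0349% in KD1, KD2 and KD3, against 9.26%, 1.92% and 2.73% in Ctrl1, Ctrl2 and Ctrl3. Cells under 150 UMIs were left out of this, which removed 65 cells of KD2 and 40 of Ctrl1 and none of the other libraries. The mean difference at equal depth was −0.171 points. A minimum of 200 features per cell changed 1 library most, with a share of 20.3% in Ctrl1, and gave a mean difference of −2.66 points.

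The summed level of the 5 defining features over all kept cells, which needs no threshold per cell, gave the same picture. It was 36.2, 37.8 and 2.81 UMIs per 10000 UMIs in KD1, KD2 and KD3, and 44.3, 13.5 and 20.7 in Ctrl1, Ctrl2 and Ctrl3. Again KD3 was lowest, Ctrl1 was highest and the groups overlapped, with the same limit for Ctrl1, in which the 5 features were found. The difference of the means was −0.571 UMIs per 10000 (25.6 ± 19.8 in KD, 26.2 ± 16.1 in Ctrl, SD, n = 3 each, exact two-sided permutation p = 1). Leaving out KD3 turned it to 10.8, and leaving out Ctrl1 to 8.51. In a fit of all 7024 features that passed a filter on low counts, summed over all kept cells, none of the 5 was called (edgeR quasi-likelihood test, Benjamini-Hochberg adjusted p = 0.9997 for each). The background in that comparison was 0% of features called, with 120 at an unadjusted p under 0.05, and DESeq2 called 0, with 163 at an unadjusted p under 0.05.

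KD3 was low in the other cells too. The 5 features summed to 10.9, 13.7 and 2.68 UMIs per 10000 in the other cells of KD1, KD2 and KD3, and to 8.20, 8.35 and 8.34 in those of Ctrl1, Ctrl2 and Ctrl3. Other cells of KD3 were thus the lowest of the 6 libraries and the remaining KD animals were above all 3 Ctrl animals. Of the UMIs of the 5 features, HDNP-like cells held 72.3%, 65.6% and 4.71% in KD1, KD2 and KD3 and 82.8%, 39.2% and 60.8% in Ctrl1, Ctrl2 and Ctrl3.

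Within HDNP-like cells the 5 defining features differed in how specific they were. The cells were chosen by these levels, which are given as a description, with no test. WNGS01166011.2446490 had 55.8, 92.5 and 72.6 UMIs per 10000 in HDNP-like cells of KD1, KD2 and KD3 and 77.9, 72.4 and 95.9 in those of Ctrl1, Ctrl2 and Ctrl3. In other cells it had 0.532, 0.448 and 0.0663 in KD and 0.285, 0.201 and 0.308 in Ctrl libraries. HDNP-like cells held 87.7% to 95.3% of all its UMIs in 5 libraries and 33.3% in KD3.

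WNGS01167840.2551381 reached 117, 140 and 27.2 UMIs per 10000 in HDNP-like cells of the KD libraries and 134, 58.7 and 137 in those of the Ctrl libraries. Its level in other cells was between 0.0746 (KD3) and 1.47 (Ctrl1). WNGS01109635.1378097 had 65.0, 96.5 and 27.2 UMIs per 10000 in HDNP-like cells of KD and 97.8, 40.1 and 82.2 in those of Ctrl libraries. For both features the 2 cells of KD3 had the lowest level of the 6 libraries. In those 2 cells, however, each of these levels is 3 UMIs.

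WNGS01052365.949848_3_covsplit was the least specific. It was found in 58.0%, 17.5% and 16.1% of other cells in KD1, KD2 and KD3 and in 14.5%, 55.9% and 35.9% of those in Ctrl1, Ctrl2 and Ctrl3. The deeper libraries KD1 and Ctrl2 had the highest shares. Of the UMIs of all 5 features it made up 24.5%, 29.3% and 56.3% in HDNP-like cells of the KD and 36.2%, 35.0% and 32.1% in those of the Ctrl libraries, against 64.8%, 49.8% and 83.2% in other cells of the KD and 55.0%, 75.3% and 67.1% in those of the Ctrl libraries. The low level of the 5 features in other cells was thus mostly this 1 feature in all libraries but KD2, where it was just under 50%.

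WNGS01167840.2551076_0_covsplit was the rarest and varied most between animals. It had 5.75, 4.02 and 0 UMIs per 10000 in HDNP-like cells of KD1, KD2 and KD3 and 32.2, 6.69 and 4.36 in those of Ctrl1, Ctrl2 and Ctrl3. Ctrl1 was far above the next library, and the others lay close together. In the 2 cells of KD3, 0 counts of this feature say little. Over all kept cells its level was 0.602, 0.265 and 0.0166 in KD and 2.51, 0.275 and 0.233 in Ctrl libraries, and its fitted log2 fold change, KD over Ctrl, was −3.12 ± 1.31 (SE; unadjusted p = 0.0373 and adjusted p = 0.9997 in the edgeR fit). Without Ctrl1 the fold change was 0.22.

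**Figure D2:**
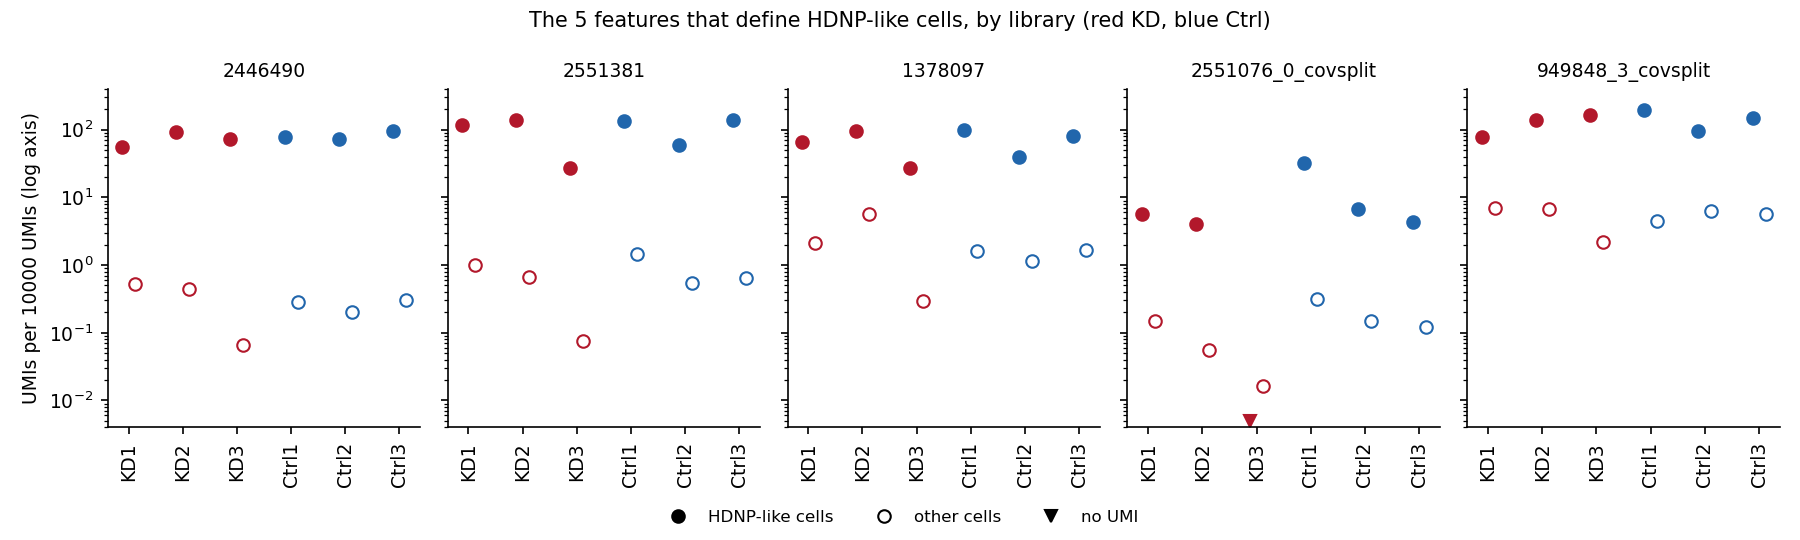
Level of each of the 5 defining features (UMIs per 10000 UMIs, log axis) in HDNP-like cells (filled) and other cells (open) of each library, red for KD and blue for Ctrl. The triangle marks a feature with no UMI, WNGS01167840.2551076_0_covsplit in the 2 HDNP-like cells of KD3. That feature stands highest in Ctrl1, at 32.2, and WNGS01052365.949848_3_covsplit has the narrowest gap between HDNP-like and other cells.

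The 5 features marked the cells to different degrees. The median share of a cell's UMIs that came from them was 2.39%, 3.32% and 3.11% in HDNP-like cells of KD1, KD2 and KD3 and 4.51%, 2.28% and 2.80% in those of Ctrl1, Ctrl2 and Ctrl3. Just inside the threshold, at 1% to 2%, were 26, 11 and 0 HDNP-like cells of the KD libraries and 67, 9 and 7 of the Ctrl libraries. Just outside it, at 0.5% to 1% with at least 2 features detected, were 41, 14 and 5 cells of the KD and 80, 12 and 11 of the Ctrl libraries. A further 11 cells of KD2 and 16 of Ctrl1 were at or above 1% with only 1 feature detected. In every library more cells lay just outside the threshold than just inside it. Ctrl1 had 228 cells at 0.5% to 1% whatever the number of features detected, 83 at 1% to 2%, 155 at 2% to 4% and 214 at 4% to 8%. Each of these ranges is wider than the one before, so the counts do not show a gap at the threshold. KD3 had no cell at 1% to 2%. The rule was also lenient in shallow cells: HDNP-like cells of KD2 had a median of 5.5 UMIs of the 5 features and a minimum of 2, against medians of 33 in KD1 and 32 in Ctrl2.

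HDNP-like cells had a broader set of transcripts than other cells of the same animal. These measures leave out the 5 defining features. At an equal depth of 150 UMIs, which 31 of the 40 HDNP-like cells of KD2, 476 of the 522 of Ctrl1 and all of those of the other libraries reached, the median HDNP-like cell showed 126, 122 and 122.5 features in KD1, KD2 and KD3 and 108, 130 and 127 in Ctrl1, Ctrl2 and Ctrl3. The median other cell showed 108.5, 101 and 73 features in KD1, KD2 and KD3 and 85, 101 and 103 in Ctrl1, Ctrl2 and Ctrl3. HDNP-like cells were higher in 6 of 6 libraries, by 27.3 ± 11.5 features (SD, n = 6 libraries; exact two-sided paired permutation test p = 0.0312, the smallest that 6 pairs allow, adjusted p = 0.0417 over 4 measures). Without thinning they had 93.7 ± 86.1 more features per cell (same p and adjusted p). With any 1 library left out both differences stayed positive, but 5 pairs cannot give a p below 0.0625. Without shared barcodes, still over 6 libraries, both calls were lost: the differences were 27.0 features at 150 UMIs and 90.7 features without thinning (exact paired permutation tests, adjusted p = 0.0625 and 0.0833). In the same tests the unadjusted p was 0.0312 at 150 UMIs and 0.0625 without thinning.

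The leading features took a smaller part of the RNA in HDNP-like cells. The 10 most abundant features of each cell class held 10.6%, 12.1% and 15.1% of UMIs in HDNP-like cells of KD1, KD2 and KD3 and 18.5%, 10.6% and 11.6% in those of Ctrl1, Ctrl2 and Ctrl3. In other cells they held 22.9%, 28.7% and 46.8% in the KD and 41.0%, 29.3% and 24.5% in the Ctrl libraries. The share was lower in HDNP-like cells of 6 of 6 libraries, with a mean difference of −19.1 ± 7.24 percentage points (SD, n = 6; exact paired permutation p = 0.0312, adjusted p = 0.0417), and the ranges of the 2 cell classes did not overlap. Without shared barcodes the difference was −19.2 points and the call was lost (exact paired permutation test, adjusted p = 0.0625). The unadjusted p of that test stayed at 0.0312. The number of UMIs per cell showed no such difference: without the 5 features, medians differed by −18.6 ± 122 UMIs (exact paired permutation p = 0.719), with HDNP-like cells higher in KD1 and Ctrl2 only.

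**Figure D3:**
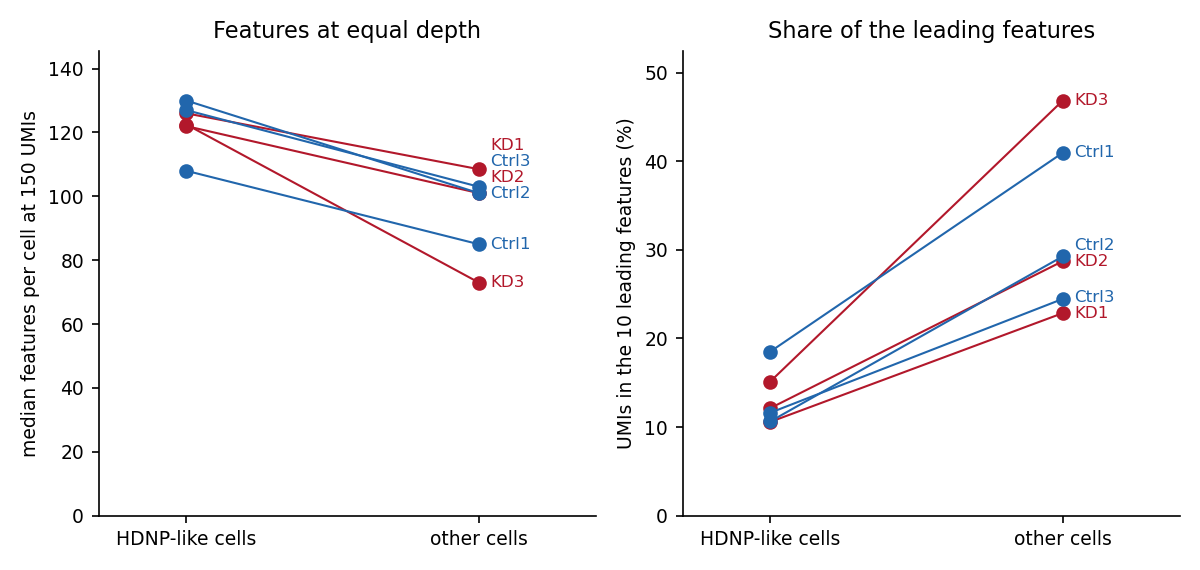
Left, median number of detected features per cell after thinning to 150 UMIs. Right, percent of UMIs held by the 10 most abundant features. Each line joins HDNP-like cells (left) to other cells (right) of 1 library, red for KD and blue for Ctrl, with the 5 defining features left out. All 6 lines run down in the left panel, by 27.3 features on average, and up in the right panel, where the mean difference is −19.1 percentage points, HDNP-like minus other cells.

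None of these measures separated HDNP-like cells of KD from those of Ctrl animals. Features at 150 UMIs averaged 124 ± 2.18 in KD and 122 ± 11.9 in Ctrl animals, and the leading 10 features held 12.6 ± 2.32% in KD and 13.6 ± 4.29% (SD, n = 3 each). In exact two-sided permutation tests p was 1 for the first and 0.8 for the second, with adjusted p = 1 over 4 measures for both.

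HDNP-like cells also stood together in features that the definition did not use. In a space of 15 principal components built in each library without the 5 features and without other features of the same number, a mean of 81.4%, 31.7% and 6.67% of the 15 nearest neighbours of an HDNP-like cell were HDNP-like in KD1, KD2 and KD3, and 87.2%, 81.2% and 68.9% in Ctrl1, Ctrl2 and Ctrl3. For other cells the figure was 1.85%, 1.52% and 0.0302% in the KD and 0.980%, 0.211% and 0.508% in the Ctrl libraries. The share was higher for HDNP-like cells in 6 of 6 libraries. That of Ctrl1 is no independent evidence, since the 5 features were found by clustering its cells. In KD3, 6.67% is 1 neighbour of 15, the most that its 2 HDNP-like cells allow. Of the remaining libraries the share was lowest in KD2, whose cells were shallow. There only 7 of 40 had mostly HDNP-like neighbours, against 65 of 71 in KD1. With 30 neighbours instead of 15 these shares were 79.8%, 22.6% and 3.33% in the KD and 86.4%, 58.9% and 46.3% in the Ctrl libraries. Ctrl2 and Ctrl3 hold only 27 and 18 HDNP-like cells, so there, as in KD3, 30 neighbours could not all be HDNP-like. In KD2, 2 of 40 cells had mostly HDNP-like neighbours. These are descriptions of cells within libraries and carry no test.

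The difference between HDNP-like and other cells was then tested over libraries. Counts were summed over the HDNP-like and over the other cells of each library, without the 5 features, and compared with a library block. The filter on low counts saw both sums together, so a feature could pass it through a single cell class. Ctrl1 was left out of the fit, since the 5 features were found by clustering its cells. Of 2210 features that passed the filter, 957 were called (43.3%, edgeR adjusted p under 0.05), 332 of them higher (15%) and 625 lower (28.3%) in HDNP-like cells. Those called higher had a median log2 fold change of 2.13 and those called lower one of −2.23, against −0.28 over all features tested. In each of the 5 libraries the same direction was seen for 81 of the 332 and for 345 of the 625. These counts cannot be compared with each other. A feature without a UMI in the 2 HDNP-like cells of KD3 fails if called higher. If called lower, it passes in KD3 once its other cells hold a UMI. Without KD1 the fit called 595 features of 1616.

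The balance of higher and lower calls depended on scaling. This fit scales each sum by TMM (trimmed mean of M-values), whose factor was 4.17 for the 2 cells of KD3 with their 929 UMIs, against 1.17 to 1.89 for HDNP-like cells of the other libraries. With library totals only, 1150 features were called, 811 higher and 339 lower, so that the share of higher calls was 70.5% instead of 34.7%, and the median over all features tested moved to 0.64. All 332 features called higher with TMM scaling were called higher with totals only. Of those called lower, 339 were called lower under both scalings. These 332 and 339 features are described further, and the direction of the remaining lower calls is not.

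Ctrl1, the largest library, gave a separate look at these features, with the limit that its cells supplied the definition. Of the 332 features higher under both scalings, 225 had at least 10 UMIs in Ctrl1, and 217 of these (96.4%) had more UMIs per 10000 in its HDNP-like than in its other cells, against 68.4% of all 1860 tested features with at least 10 UMIs. Of the 339 lower features, 328 had at least 10 UMIs there, and 232 (70.7%) were lower in HDNP-like cells of Ctrl1, against 31.6% of all. No test of the lists was made.

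**Figure D4:**
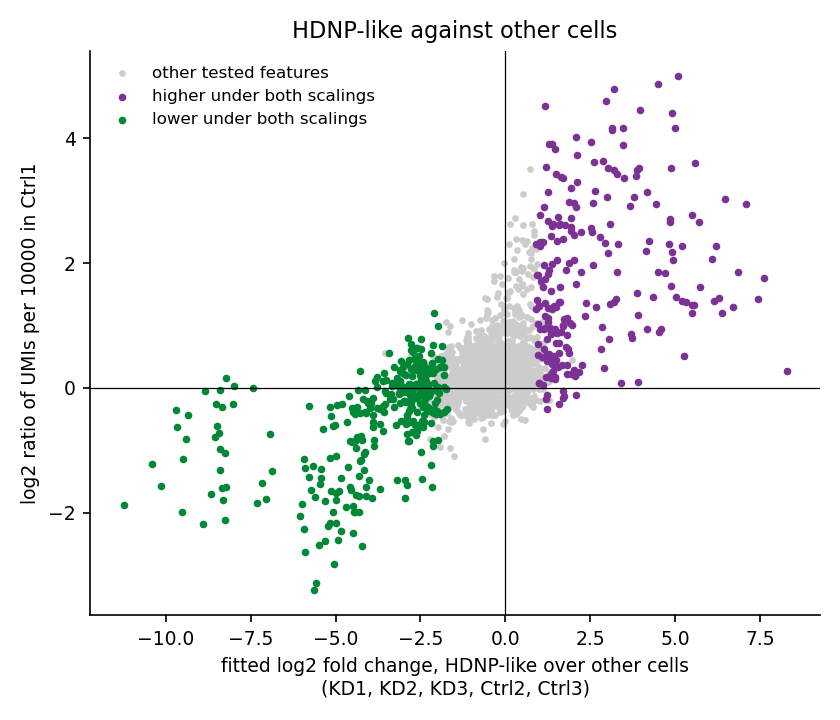
Fitted log2 fold change of HDNP-like over other cells in the 5 libraries without Ctrl1 (x axis) against the log2 ratio of UMIs per 10000 in Ctrl1, with 0.5 added to each level (y axis), for 1860 features with at least 10 UMIs in Ctrl1. The 225 features higher under both scalings (purple) lie almost all above 0 on the y axis, and the 328 lower ones (green) spread over both sides of it.

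The features named here had the largest fold changes among those called with the same direction in all 5 libraries of the fit. WNGS01164858.2254400 had 0.959, 1.06 and 9.35 UMIs per 10000 in HDNP-like cells of KD1, KD2 and KD3 and 6.58 and 2.61 in those of Ctrl2 and Ctrl3. In other cells it had 0.0328 in KD1, 0.00574 in Ctrl2 and no UMI in KD2, KD3 and Ctrl3. Its log2 fold change was 6.86 ± 0.68 (SE, edgeR adjusted p = 7.3e-22), on few molecules: 1 UMI in KD2 and 1 in KD3. So rare in other cells, it passed the filter only through HDNP-like cells, where it is high. This p is therefore no support for the direction. In Ctrl1, outside the fit, it had 1.36 UMIs per 10000 in HDNP-like and 0.0119 in other cells.

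WNGS01164437.2133874_0_covsplit had 5.46, 9.50 and 18.7 UMIs per 10000 in HDNP-like cells of KD1, KD2 and KD3 and 6.58 and 1.96 in those of Ctrl2 and Ctrl3. Other cells of the same libraries had 0.197, 0.112 and 0.0207 in KD and 0.0172 and 0.0514 in Ctrl. No library's HDNP-like level overlapped the levels in other cells, and the log2 fold change was 5.19 ± 0.42 (SE, edgeR adjusted p = 1.6e-31). This feature too passed the filter only through HDNP-like cells, so its p is no support for the direction. It was found in 39.4%, 12.5% and 50% of HDNP-like cells of KD1, KD2 and KD3 and in 33.3% and 16.7% of those of Ctrl2 and Ctrl3. No more than 1.85% of other cells of any library had it. The KD3 level is 2 UMIs. In Ctrl1, outside the fit, only 1.92% of HDNP-like cells had it. Its level there was 0.852 UMIs per 10000 in HDNP-like and 0.0178 in other cells.

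In the other direction, WNGS01164643.2196050_0_covsplit had no UMI in the HDNP-like cells of the 5 libraries. Other cells had 7.03, 3.48 and 1.93 UMIs per 10000 in KD1, KD2 and KD3 and 7.17 and 5.09 in Ctrl2 and Ctrl3. Pooled over the 5 libraries, its level was at least 26.1-fold lower in HDNP-like cells, taking 3 UMIs over the group as the limit that 0 counts allow. WNGS01042707.860522_2_covsplit was also without a UMI in HDNP-like cells of the 5 libraries and at least 19.2-fold lower on the same basis, with 2.06 to 4.95 UMIs per 10000 in other cells. Both were called lower (edgeR adjusted p = 3.1e-18 and 1.3e-14). Without a UMI in HDNP-like cells, both passed the filter only through other cells, so these p are no support for the direction. In Ctrl1 neither was absent: HDNP-like cells had 1.02 and 0.341 UMIs per 10000 of them, against 5.06 and 1.46 in other cells.

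The higher features lay on 126 scaffolds and were not limited to those of the definition. On the 4 scaffolds that hold the 5 defining features, 16 of 83 tested features were higher (19.3%), against 15% of all features tested. Features that carry the same number as a defining feature but another suffix, which the annotation lists as separate pieces, could be tested in 2 cases. WNGS01052365.949848_2_covsplit had a log2 fold change of 0.41 ± 0.42 and WNGS01109635.1378097_3_covsplit one of 0.57 ± 0.42 (SE, edgeR adjusted p = 0.461 and 0.280), so neither was called although their namesakes define the cells.

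Markers of other hemocyte populations were lower in HDNP-like cells. The list held 9 features that led the counterparts of the SGC, GC and CPH clusters in a clustering of the same libraries, so it is not independent evidence of a direction. In the fit 8 of the 9 were tested and all 8 were called lower, against 28.3% of all features tested. Their median log2 fold change was −5.03, or −4.95 with the 1 feature at 0 in HDNP-like cells set to its bound, against −0.28 over all features tested. With totals only, 7 of 8 were called lower, with a median of −3.78 against 0.64. The ninth, WNGS01092210.1271499, was too rare to test. WNGS01092210.1242857, without a UMI in HDNP-like cells of the 5 libraries, passed the filter only through other cells. The calls and p of these markers, here and below, therefore describe the list and are no support for the direction.

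The 6 GC markers together had 256, 515 and 535 UMIs per 10000 in HDNP-like cells of KD1, KD2 and KD3 and 526, 295 and 290 in those of Ctrl1, Ctrl2 and Ctrl3. In other cells they had 694, 1613 and 2951 in KD and 1400, 884 and 1015 in Ctrl libraries. The sum was lower in HDNP-like cells of every library, and the ranges did not overlap. Most of what remained in HDNP-like cells was 1 feature, WNGS01001312.121569_1_covsplit, which had a UMI in 95% to 100% of HDNP-like cells of every library. Its levels were 239, 267 and 245 UMIs per 10000 in HDNP-like cells of the KD and 418, 277 and 254 in those of the Ctrl libraries, against 236, 253 and 509 in other cells of the KD and 945, 334 and 215 in those of the Ctrl libraries. HDNP-like cells were higher in KD1, KD2 and Ctrl3 and lower in the other libraries. Its log2 fold change of −1.50 ± 0.62 (SE, edgeR adjusted p = 0.0385) became −0.01 with totals only (adjusted p = 0.991).

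WNGS01163813.2084876, another GC marker, had 15.7, 207 and 200 UMIs per 10000 in HDNP-like cells of KD1, KD2 and KD3 and 72.9, 14.3 and 31.1 in those of Ctrl1, Ctrl2 and Ctrl3, against 387, 1150 and 1944 in other cells of the KD and 211, 418 and 674 in those of the Ctrl libraries. HDNP-like cells were lower in every library, and KD2 and KD3 were the highest libraries in both cell classes, whereas Ctrl1 was the lowest in other cells and the third highest in HDNP-like cells. Its log2 fold change of HDNP-like over other cells was −5.44 ± 0.77 (SE, edgeR adjusted p = 3.4e-11). Whether free RNA in the droplets carries part of this level into HDNP-like cells was not tested.

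The SGC marker, WNGS01021324.680489_28_covsplit, had 3.62, 10.1 and 0 UMIs per 10000 in HDNP-like cells of KD1, KD2 and KD3 and 17.8, 2.04 and 0.623 in those of Ctrl1, Ctrl2 and Ctrl3. In other cells it had 71.7, 47.1 and 9.79 in the KD and 60.2, 41.2 and 41.1 in the Ctrl libraries. The 2 shallow libraries, KD2 and Ctrl1, kept the highest levels in HDNP-like cells. The log2 fold change was −4.90 ± 0.58 (SE, edgeR adjusted p = 1.9e-15). The 2 CPH markers had no UMI in HDNP-like cells of 5 libraries and 1.53 UMIs per 10000 in those of Ctrl1, against 0.819, 1.85 and 0.419 in other cells of the KD and 7.70, 0.608 and 0.753 in those of the Ctrl libraries.

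**Figure D5:**
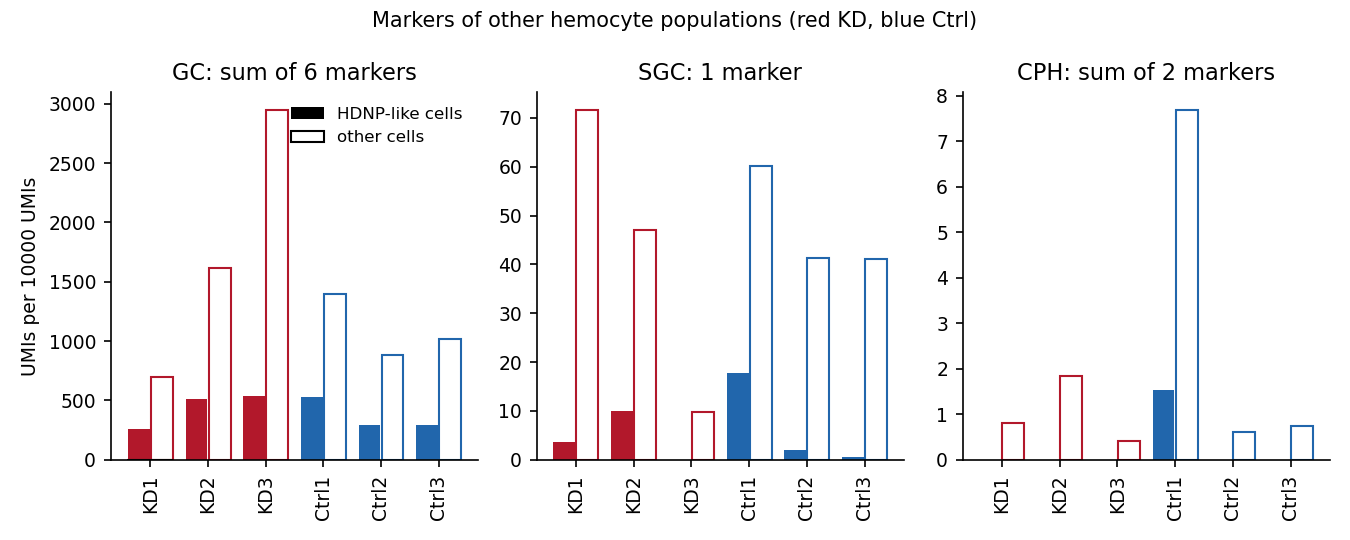
Level of markers of other hemocyte populations (UMIs per 10000 UMIs) in HDNP-like cells (filled bars) and other cells (open bars) of each library, red for KD and blue for Ctrl. The filled bar is shorter in every library for all 3 groups. CPH markers are without a UMI in HDNP-like cells of all libraries but Ctrl1, at 1.53.

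HDNP-like cells of KD and Ctrl animals were compared last. Only 346 features passed the filter, and 0 were called (0%, edgeR, smallest adjusted p = 0.839). At an unadjusted p under 0.05 there were 8, and DESeq2 called 0, with 11 at an unadjusted p under 0.05. Fitted log2 fold changes, KD over Ctrl, lay between −3.09 and 2.73 with a median of −0.12 (0.10 with totals only) and a median SE of 0.65, so that changes of the size of this error were not detectable with these cells. Over all 346, 132 were positive and 214 negative. Of the 98 tested features that are higher in HDNP-like cells under both scalings, 36 had a positive and 62 a negative fold change, with a median of −0.14. Of the 71 that are lower in HDNP-like cells, 16 were positive and 55 negative, with a median of −0.90, and 4 had an unadjusted p under 0.05. Both lists came from a fit of these data that held every KD library but not Ctrl1. How far this choice of libraries shaped the signs was not tested. The signs are given as a description, with no test, and are no evidence of a knockdown effect.

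Restricted to the 4 libraries that share barcodes, the same fit called 1 feature of 372, WNGS01163813.2084876, with a log2 fold change of 2.39. This is the GC marker above, which had 15.7 and 207 UMIs per 10000 in HDNP-like cells of KD1 and KD2, against 14.3 and 31.1 in those of Ctrl2 and Ctrl3. KD1 lay between the Ctrl animals, so the groups overlapped.

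The last test asked whether the difference between HDNP-like and other cells was itself changed by the knockdown. Of 2320 features, 0 were called (0%, edgeR interaction of cell class and treatment, with 72 at an unadjusted p under 0.05), and DESeq2 called 0, with 12 at an unadjusted p under 0.05. The nearest was WNGS01162197.1975467_0_covsplit, chosen here after its values were seen, with an interaction of −3.69 ± 0.87 on the log2 scale (SE, edgeR adjusted p = 0.0558). It had 3.26, 1.06 and 0 UMIs per 10000 in HDNP-like cells of KD1, KD2 and KD3 and 1.79, 6.28 and 5.23 in those of Ctrl1, Ctrl2 and Ctrl3, against 0.189, 0.112 and 0.00415 in other cells of the KD and 0.00594, 0 and 0.0686 in those of the Ctrl libraries. It was above other cells in all libraries but KD3, where the 2 HDNP-like cells had no UMI. It was the 1 feature called without Ctrl3 and, in another fit, without shared barcodes, and a different feature was the 1 called without Ctrl1.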

How the data were processed

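Hemocytes from 6 animals (3 KD, 3 Ctrl) were profiled as 1 single-cell RNA library each. The deposited matrices hold UMI counts per feature and cell barcode, which the authors made with Cell Ranger (7.0.0 in the file headers, 4.0.0 in the submitters' processing notes, which also name Seurat 4.3.0). Intronic reads were counted, and no cell number was forced. The genome build is not given in the sources used here beyond the scaffold names in the 72982 feature identifiers, of which 36576 had counts. No sequence or gene name could be attached to an identifier.

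Cells with 100 to 2000 features were kept, with no filter on mitochondrial counts, since no feature is named. Kept cells at or above 1% of UMIs in the 5 defining features, with at least 2 of them detected, were HDNP-like. The members and all lists were chosen with earlier results of these data known. No cell was removed as a doublet. Levels are UMIs per 10000 UMIs. Those of features from the fit leave out the 5 defining features from the total. Counts were summed per library and cell class and tested with edgeR 4.0.16 (quasi-likelihood, TMM, filterByExpr, Benjamini-Hochberg, threshold 0.05), and with DESeq2 1.42.0 as an alternative, in R 4.3.3. The fits were tested on simulated data. Shares and medians per library were compared with exact permutation tests (scipy 1.17.1), and shares have 95% Clopper-Pearson intervals. Neighbours were found with scanpy 1.11.5 and scikit-learn 1.9.0 on 2000 variable features and 15 principal components.

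The features named are the 5 defining ones, the 9 markers of other populations and, in each comparison, up to 2 with the highest and 2 with the lowest fold change among those called with one direction in every library, or with groups that do not overlap. Other named features were chosen after their values were seen. Alternatives changed the 1% threshold (0.5 or 2), the number of features detected (1 or 3), the feature minimum (20 or 200), depth, shared barcodes, scaling, the filter on low counts, the block and each library in turn. Scaling by totals only, the fits of 4 libraries and 30 neighbours were added after seeing the data.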

Additional observations from a re-analysis of the deposited data

Results flagged for a closer look

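Differences between HDNP-like and other cells were screened for a library far from the other 5, over 13 measures and features, where chance alone flags about 1 in 20. KD3 stood apart in 2 of them: its HDNP-like cells had 49.5 more features at 150 UMIs than its other cells, the highest of the 6 libraries, and its level of WNGS01160430.1886216, a GC marker, differed by −47.1 UMIs per 10000 between HDNP-like and other cells, the lowest of the 6. On the HDNP-like side the KD3 values rest on 2 cells, with a median of 122.5 features and no UMI of the marker. Other cells of KD3 had a median of 73 features, the lowest of the 6 libraries. Their level of the marker, 47.1 UMIs per 10000, was the highest. Ctrl1 stood apart in both CPH markers, with a difference of −4.43 UMIs per 10000 in WNGS01092210.1242857 and of −1.74 in WNGS01092210.1271499.

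Barcodes with under 100 features, which no comparison above uses, also held cells that meet the marker rule. In KD2 these were 5 of 364 such barcodes, or 1.37%, and in Ctrl1 15 of 2760, or 0.543%, with 0 in each of the other libraries.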

How the results depend on the processing

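The share difference between KD and Ctrl animals of −0.180 percentage points turned positive under several settings: 0.74 with a 0.5% threshold, 0.30 with 1 feature detected, 0.29 with a minimum of 20 features, 3.41 between medians over animals, 0.23 without shared barcodes and 4.60 in 4 libraries. It was −2.66 with a minimum of 200 features and −0.69 with a 2% threshold. Leaving out 1 animal gave −1.80 to 2.23. The difference in summed level of −0.571 UMIs per 10000 became 0.28 over all barcodes, 1.56 without shared barcodes, 19.9 in 4 libraries and −6.92 to 10.8 with 1 animal left out. None of these permutation tests could give a p below 0.05. The smallest possible was 0.1 with 3 against 3 animals, 0.2 with 1 animal left out and 0.333 in 4 libraries. The log2 fold changes of the defining features over all kept cells were negative with TMM scaling and none was called; with totals only they were 0.062 for WNGS01166011.2446490, 0.19 for WNGS01167840.2551381, 0.39 for WNGS01109635.1378097, −1.74 for WNGS01167840.2551076_0_covsplit and −0.26 for WNGS01052365.949848_3_covsplit. With 1 library left out they ran over −1.53 to 0.58 for the first of these, −1.57 to 0.95 for the second, −1.40 to 1.05 for the third, −4.23 to 0.22 for WNGS01167840.2551076_0_covsplit and −1.47 to 0.32 for WNGS01052365.949848_3_covsplit, each upper end being the fit without Ctrl1, and in 4 libraries they were 1.14, 1.54, 1.57, 0.79 and 0.54.

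HDNP-like cells kept more features and a smaller share in the leading 10 than other cells in each setting run. With 1 library left out, where 5 pairs cannot reach the threshold, the differences were 75.2 to 112 features, 22.9 to 29.3 features at 150 UMIs and −20.4 to −16.6 percentage points, and without shared barcodes 90.7, 27.0 and −19.2, with adjusted p of 0.0833, 0.0625 and 0.0625. The difference in UMIs was −57.4 to 11.0 with 1 library left out and 40.5 with a 2% threshold. Between KD and Ctrl HDNP-like cells, differences with 1 animal left out ran over −302 to 320 UMIs, −156 to 144 features, −5.0 to 6.0 features at 150 UMIs and −2.45 to 1.49 percentage points, and a 2% threshold gave −51.5 UMIs and −40.2 features.

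The 957 features called between HDNP-like and other cells became 2210 of 35054 without a filter, 423 without the library block, 678 with DESeq2, 1055 with the RLE scaling, 1009 with all 6 libraries and 595 to 1102 with 1 library left out. The lowest count was without KD1, and without KD3 there were 927 (374 higher, 553 lower). Markers of other populations called lower were 6 to 8 with 1 library left out. Over all kept cells, KD against Ctrl, 14 features were called without the filter and 0 with it. In HDNP-like cells, KD against Ctrl, 1 feature was called in 4 libraries and 0 in every other setting run. The interaction gave 1 call without Ctrl1 and in 4 libraries (WNGS01160430.1885661_0_covsplit), 1 without Ctrl3 and without shared barcodes (WNGS01162197.1975467_0_covsplit) and 1 with a 2% threshold (WNGS01117529.1540802_0_covsplit). These names were chosen after their values were seen, and the cause of each change was not tested.

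The replicate numbers did not pair the animals: same-numbered deviations in HDNP-like cells correlated at −0.46, 0.20 and −0.04. With the replicate block the share difference was −0.180 points (exact paired permutation p = 1), the summed level −0.571, and 0 features were called over all kept cells and 0 of 435 in HDNP-like cells. No interaction was fitted with this block. The depth of KD2 and Ctrl1 and the 2 cells of KD3 limit each comparison that includes them.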

Other observations

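WNGS01160430.1885661_0_covsplit was called in an alternative fit of the interaction, and was chosen after its values were seen. It had 11.3, 7.39 and 9.35 UMIs per 10000 in HDNP-like cells of KD1, KD2 and KD3 and 14.1, 28.1 and 13.7 in those of Ctrl1, Ctrl2 and Ctrl3, against 0.541, 0.561 and 0.0788 in other cells of the KD and 0.309, 0.0287 and 0.103 in those of the Ctrl libraries. The levels in HDNP-like cells of KD2 and KD3 are 7 UMIs and 1 UMI. In HDNP-like cells the edgeR log2 fold change, KD over Ctrl, was −1.11 ± 0.54 (SE, adjusted p = 0.999).

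The ratios of HDNP-like to other cells were compared between libraries over the 2210 features of the fit, as a description across genes, which are not independent replicates. Spearman correlations were highest for KD1 with Ctrl2, at 0.77, and lowest for KD3 with Ctrl1, at 0.28.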
